A study of Homo sapiens with 2 samples.

Results

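The CDK inhibitor genes of the CIP/KIP family (CDKN1A, CDKN1B and CDKN1C) and the INK4 family (CDKN2A, CDKN2B, CDKN2C and CDKN2D) were examined in EGR1-transfected H1299 cells. They were chosen by name, with earlier results of these data known, through the gene symbols that the platform annotation gives to probe sets. Of the 49395 probe sets with values, 14 carried the symbol of 1 of these genes and none carried it together with another symbol. They covered 6 of the 7 genes, and the level of CDKN2C was not analysed here. H1299 is a long-established human lung carcinoma line of the non-small cell type and has no p53. Its cells had been transfected with a lipid reagent, either with pcDNA3.1 carrying EGR1, an immediate-early zinc-finger transcription factor, or with empty pcDNA3.1. Total RNA was taken 48 hours later, and each group was read on 1 Affymetrix array. The transfection was transient, so a sample mixes cells that took up plasmid with cells that did not, in a proportion not given in the sources used here. There was no replicate, so no difference below has a test or a p-value, and each describes these 2 arrays only.

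Cyclin-dependent kinases drive the cell cycle when bound to a cyclin, and CDK inhibitors hold them back. CIP/KIP proteins bind cyclin and kinase together and act on several cyclin-CDK complexes, whereas INK4 proteins are built of ankyrin repeats and bind CDK4 and CDK6 alone. With CDK4, CDK6 and CDK2 held inactive, RB proteins keep E2F factors silent and cells do not enter S phase. In p53-proficient cells p53 is the best known activator of CDKN1A.

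Because EGR1 binds GC-rich promoter sequence, the 250 bases before the annotated start were read from RefSeq promoter windows (GRCh38.p14) and searched on both strands for the EGR1-type motif GCGNGGGCG and the SP-type GC box GGGCGG. These can overlap, since an EGR1-type match followed by G holds a GC box. The table had 9 windows for 6 of the 7 genes, all but CDKN1C. The windows of the 2 CIP/KIP genes that have one are shown as examples. Both genes read higher in the EGR1 array, but so did CDKN2A and CDKN2B by their brightest probe sets, and their windows are not printed. Whether any window has a part in a difference was not tested. CDKN1A lies at chr6:36678464-36678713 and CDKN1B at chr12:12717118-12717367, both on the plus strand. Capitals mark the GC boxes.
CDKN1A: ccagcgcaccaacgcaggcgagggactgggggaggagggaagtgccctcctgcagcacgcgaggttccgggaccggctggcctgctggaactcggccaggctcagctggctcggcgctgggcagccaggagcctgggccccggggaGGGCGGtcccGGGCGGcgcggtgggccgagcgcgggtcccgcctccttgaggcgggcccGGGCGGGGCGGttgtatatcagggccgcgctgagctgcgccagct
CDKN1B: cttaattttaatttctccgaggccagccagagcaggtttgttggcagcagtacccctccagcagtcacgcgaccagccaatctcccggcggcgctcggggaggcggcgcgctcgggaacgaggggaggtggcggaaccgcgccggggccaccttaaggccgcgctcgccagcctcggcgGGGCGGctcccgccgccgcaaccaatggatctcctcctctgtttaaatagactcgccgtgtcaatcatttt
The CDKN1A window held 4 GC boxes, a pair of them overlapping, in 76.4% G and C. That of CDKN1B held 1 in 64.4%, and the median over all windows of the table was 58%. A GC box was present in 7 of the 9 windows, and 42.6% of all 35116 windows in the table hold one. The EGR1-type motif was found in 1 of the 9, against 8.41% of all windows. That match lay in the middle one of the 3 CDKN2C windows and had the form GCGTGGGCG, which 0.72% of all windows hold. It is shown within the 30 bases at chr1:50968643-50968672 (plus strand), with the motif in capitals.
CDKN2C: ggagggcgggGCGTGGGCGgcgcccggcct
A match describes letters in a window and is not a binding site, and the missing matches say only that these letters are not in these windows. No level of CDKN2C stood beside its match.

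Values are the authors' log2 levels made with RMA, which subtracts background, brings arrays to a common distribution and combines the probes of each probe set into a single level. Both arrays had nearly the same distribution: the lower and upper quartiles were 4.28 and 7.50 with empty vector, 4.32 and 7.47 with EGR1. A difference is the EGR1 array minus the empty-vector array, and levels of different probe sets are not read as relative amounts of RNA. A gene is represented by its brightest probe set, the one with the highest mean of both arrays. A floor at the 40th percentile of mean level (5.22) left 12652 of 18132 genes. Between probe sets of the same gene the difference had a pooled SD of 0.15 over 7114 genes with several probe sets past the floor. That SD describes spread between probe sets on these 2 arrays, whatever its source. It measures no spread between cultures, transfections or arrays. Of the 6 EGR1 probe sets 2 were higher (13.3-fold and 6.76-fold) and 4 lower, with differences from -0.39 to -0.20. The brightest of the 6 read 10.51 with empty vector and 10.12 with EGR1. By the rule of the brightest probe set the transfected gene itself thus counts as lower, at -0.39. Gene counts, ranks and medians that use this rule can therefore miss a difference that other probe sets of a gene show. Of the epithelial markers KRT8, KRT18 and KRT19 lay past the floor and EPCAM and CDH1 did not. VIM, CDH2 and FN1, mesenchymal markers, all lay past it, as did 1 of 3 leukocyte, 0 of 3 fibroblast and 2 of 3 endothelial markers. Among these keratins, KRT8 and KRT18 were themselves higher in the EGR1 array (differences 2.00 and 1.76).

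By the brightest probe set, differences of the CDK inhibitor genes ran from -0.08 for CDKN2D to 2.67 for CDKN1C. All 6 genes measured lay past the floor, 5 were above 0 and 1 below, and of all genes past the floor 44.6% were above 0. CDKN1C was the 1 gene at or beyond 2-fold higher, and none was 2-fold lower. Among all genes past the floor, 0.348% reached 2-fold higher and 0.0079% 2-fold lower. The median difference over the 6 genes was 0.21, beside -0.02 over all genes past the floor, and it was 0.20 over the 5 genes other than CDKN1C. With the mean of all probe sets standing for a gene, the median of the 6 was 0.12. By probe set, 12 of 14 were above 0 and 2 below, and 3 were at or beyond 2-fold higher. Of all probe sets 45.9% were above 0 and 0.229% at or beyond 2-fold higher. Of the 14, 9 lay inside the middle 95% of all probe sets of the same decile of mean level. The 5 outside it were those of CDKN1B and CDKN1C. CDKN2A counts as above 0 at only 0.02. The genes were chosen with earlier results of these data known, so these counts describe them and are no evidence that they stand out.

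**Figure D1:**
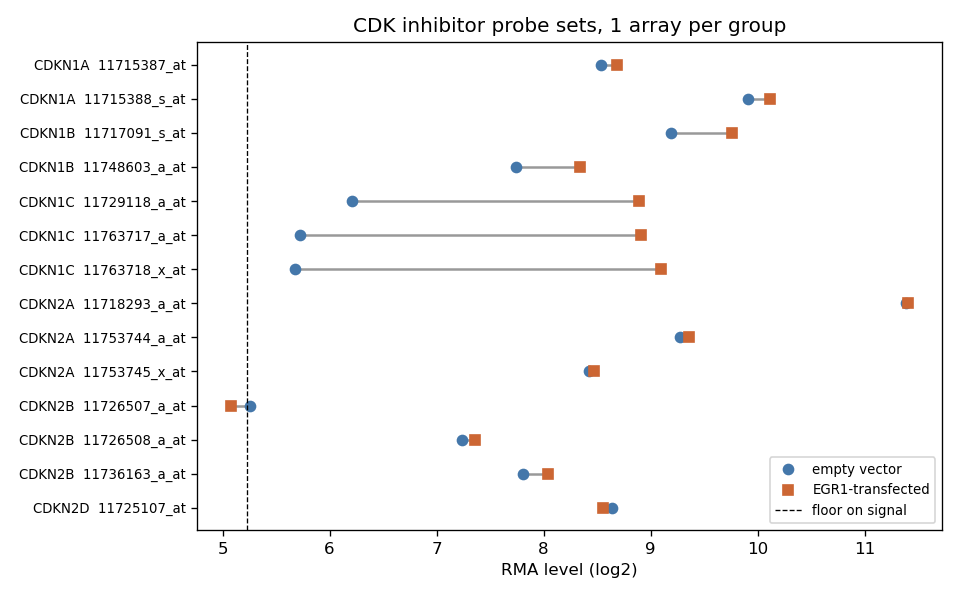
Log2 RMA level of each of the 14 CDK inhibitor probe sets in the empty-vector array (circles) and the EGR1 array (squares), joined by a line, with the floor on signal at 5.22 (dashed). The 3 CDKN1C lines are the longest, and the squares of CDKN2A lie almost on their circles; positions of different probe sets along the axis are not comparable.

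CDKN1C encodes p57, the CIP/KIP member known for its part in development and for expression from the maternal copy of an imprinted locus. Its probe set 11729118_a_at read 6.21 with empty vector and 8.89 with EGR1, a 6.38-fold difference. Probe set 11763717_a_at read 5.73 and 8.91, which is 9.07-fold. Probe set 11763718_x_at read 5.68 and 9.09, which is 10.6-fold. Each of the 3 was thus far higher in the EGR1 array than in the empty-vector array. The least of the empty-vector levels stood 0.46 above the floor, so the size of the fold rests on rather dim values there. The differences of 2.67, 3.18 and 3.41 have a mean of 3.09 and an SD of 0.38 over the 3 probe sets, which are no replicates of the transfection. The suffix _x_at marks a probe set that may bind similar transcripts, and the gene had the same brightest probe set and value without it.

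Among all 49395 probe sets these differences ranked 11th, 6th and 3rd from the top. As a gene CDKN1C ranked 3rd of 12652. The nearest in rank were NPTX1, a neuronal pentraxin, at a difference of 2.91 and a gap of 0.23, and GDF15, a secreted stress factor of the TGF-beta family, at 2.60 and a gap of 0.07. NPTX1 read 4.77 with empty vector, under the floor, so its difference and the rank of CDKN1C just beneath it rest on a dim value. With 2 arrays such likeness is one of size only. Of 6996 genes with 3 or more probe sets, 2 had every probe set at or beyond 2-fold higher, namely CDKN1C and KRT8, a keratin of simple epithelia. KRT8 had 8 probe sets with differences from 1.32 to 2.00. This count was chosen after the values were seen.

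CDKN1B encodes p27, which restrains cyclin E-CDK2 and is known for its accumulation in resting cells. Probe set 11717091_s_at read 9.19 with empty vector and 9.76 with EGR1, 1.48-fold higher. Probe set 11748603_a_at read 7.74 and 8.34, 1.52-fold higher. Both were well above the floor in each array, and their differences of 0.57 and 0.60 were 0.03 apart. The gene ranked 131st of 12652, with 1.03% of genes past the floor showing a larger difference. A threshold of 1.5-fold lay between its probe sets, so at that size 1 of the 6 genes, again CDKN1C, was higher by the brightest probe set, beside 0.941% of all genes past the floor. Of 11735 genes with 2 or more probe sets, 32 (0.273%) had none with a difference under the 0.57 of CDKN1B, a count made after seeing the values.

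CDKN1A encodes p21, the CIP/KIP member best known as a p53 target. Probe set 11715387_at read 8.54 with empty vector and 8.69 with EGR1, and 11715388_s_at read 9.91 and 10.11. The differences of 0.15 and 0.20 are 1.11-fold and 1.15-fold. Both lie inside the middle 95% of all probe sets of the same decile of mean level, which ran from -0.36 to 0.34 and from -0.27 to 0.29. Of the genes past the floor 11.8% showed a larger difference than CDKN1A. All 7 CIP/KIP probe sets were above 0, from 0.15 to 3.41, beside 45.9% of all probe sets. They read only 3 genes on the same 2 arrays. The 5 probe sets of CDKN1B and CDKN1C lay above the middle 95% of their deciles.

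**Figure D2:**
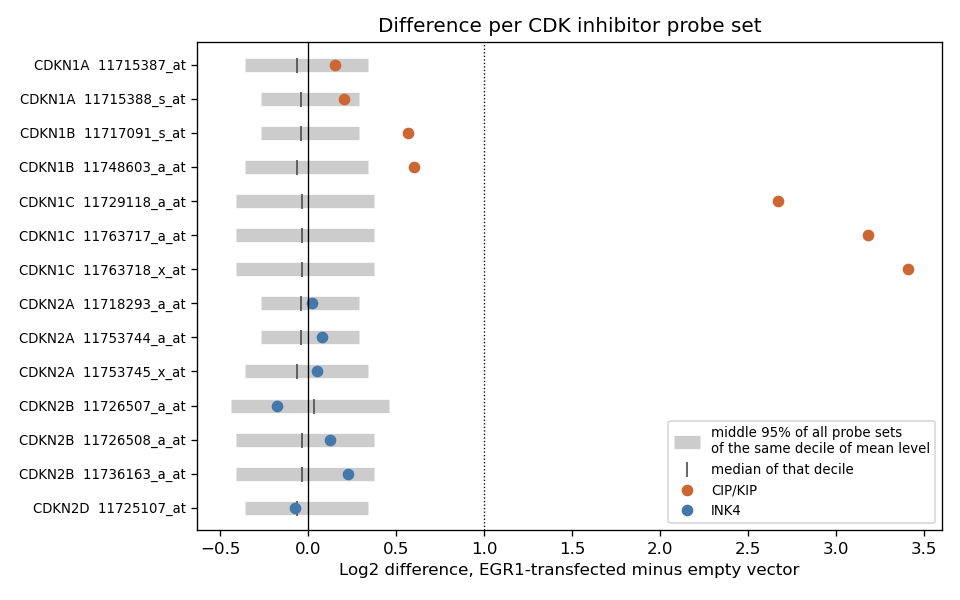
Log2 difference (EGR1-transfected minus empty vector) of each CDK inhibitor probe set, with grey bars for the middle 95% and ticks for the median of all probe sets in the same decile of mean level; the dotted line marks 2-fold. The 3 CDKN1C points (2.67 to 3.41) and the 2 CDKN1B points (0.57 and 0.60) lie to the right of their bars, and all 7 INK4 points lie on theirs.

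INK4 genes showed small differences, from -0.18 to 0.23 over 7 probe sets of 3 genes. Above 0 were 5 of the 7, beside 45.9% of all probe sets. All 7 lay inside the middle 95% of probe sets of like level. CDKN2A encodes p16 and, from another reading frame, the MDM2-binding protein ARF. Its probe sets read 11.38, 9.28 and 8.42 with empty vector, against 11.41, 9.36 and 8.47 with EGR1. They were bright in both, and their differences of 0.02, 0.08 and 0.05 are smaller than the pooled SD of 0.15. Which probe set reads p16 and which ARF was not established here.

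CDKN2B encodes p15, an INK4 protein known as a target of TGF-beta signalling, and its probe sets did not go one way. Probe set 11736163_a_at read 7.81 with empty vector and 8.04 with EGR1, 1.17-fold higher. Probe set 11726508_a_at read 7.24 and 7.36, 1.09-fold higher. Probe set 11726507_a_at read 5.25 and 5.08, 1.13-fold lower, and its mean level lay under the floor. The SD over these 3 differences was 0.21, and with their mean the gene stood at 0.06 rather than 0.23. CDKN2D encodes p19, and its single probe set read 8.64 with empty vector and 8.56 with EGR1, a difference of -0.08. In order of difference by brightest probe set the genes ran CDKN1C, CDKN1B, CDKN2B, CDKN1A, CDKN2A, CDKN2D. That order has no replicate error. Below CDKN1B (0.57) the values were 0.23, 0.20, 0.02 and -0.08. Beside a pooled SD of 0.15 between probe sets they lie too close together for their order to be settled. Of the 5 genes with several probe sets, 4 had every probe set above 0, CDKN2B being the exception. Over all 11735 such genes the share was 18.7%. That set also holds genes under the floor and genes with more probe sets, such as MDM2 with 11, so the shares are not like for like. Among the 4 is CDKN2A, with differences of only 0.02 to 0.08.

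CDKN1C sits in the imprinted cluster of chromosome 11, beside KCNQ1 and the long antisense RNA KCNQ1OT1, which is known to silence the paternal copy of its neighbours. The 5 nearest measured genes on each side in RefSeq order differed by at most 0.22 in either direction, 5 above 0 and 3 below, and none reached 2-fold. Of these 10 genes 7 lay past the floor, and TRPM5, KCNQ1OT1 and SNORA54 did not. KCNQ1 read 6.49 and KCNQ1OT1 3.31 in both arrays, with identical values by the brightest probe set, as in 5.29% of all probe sets. The 3 KCNQ1 probe sets ran from -0.08 to 0.13. On the other side SLC67A1-AS differed by 0.12, the transporter gene SLC67A1 by 0.01, and PHLDA2, an imprinted gene that restrains placental growth, by 0.08. The histone chaperone gene NAP1L4 had a difference of -0.10. Farther out CD81 differed by 0.21 and TSSC4 by -0.21. The difference of CDKN1C, 2.67, was larger than that of each of these 10 genes, the 7 past the floor included.

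CDKN2A and CDKN2B lie next to each other on chromosome 9, with the antisense RNA CDKN2B-AS1 (ANRIL) between them in gene order. The 11 measured neighbours were all below 0, from -0.29 to -0.04, with a median of -0.15, and they stayed so after a lowess correction. Of all genes 47.9% were below 0 by the same measure. Of the 11, 5 lay past the floor: MTAP, a methionine-salvage enzyme gene often lost together with CDKN2A, at -0.18, CDKN2A-AS1 at -0.20, DMRTA1 at -0.04, CAAP1 at -0.15 and PLAA at -0.11. The 6 MTAP probe sets went both ways, from -0.41 to 0.23, and 1 PLAA probe set lay above 0 (0.04). A probe set shared by MTAP and CDKN2B-AS1 read 5.74 and 5.84. All 11 lay inside the middle 95% of probe sets of like level, and several are dim, IFNA2, IFNA8 and IFNE among them. CDKN2A (0.02) and CDKN2B (0.23) were the 2 genes above 0 in this stretch by the brightest probe set. The first value is smaller than the pooled SD of 0.15, and CDKN2B also had a probe set at -0.18. Their probe sets too lay inside the middle 95%, so the signs do not set these genes apart from their neighbours.

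**Figure D3:**
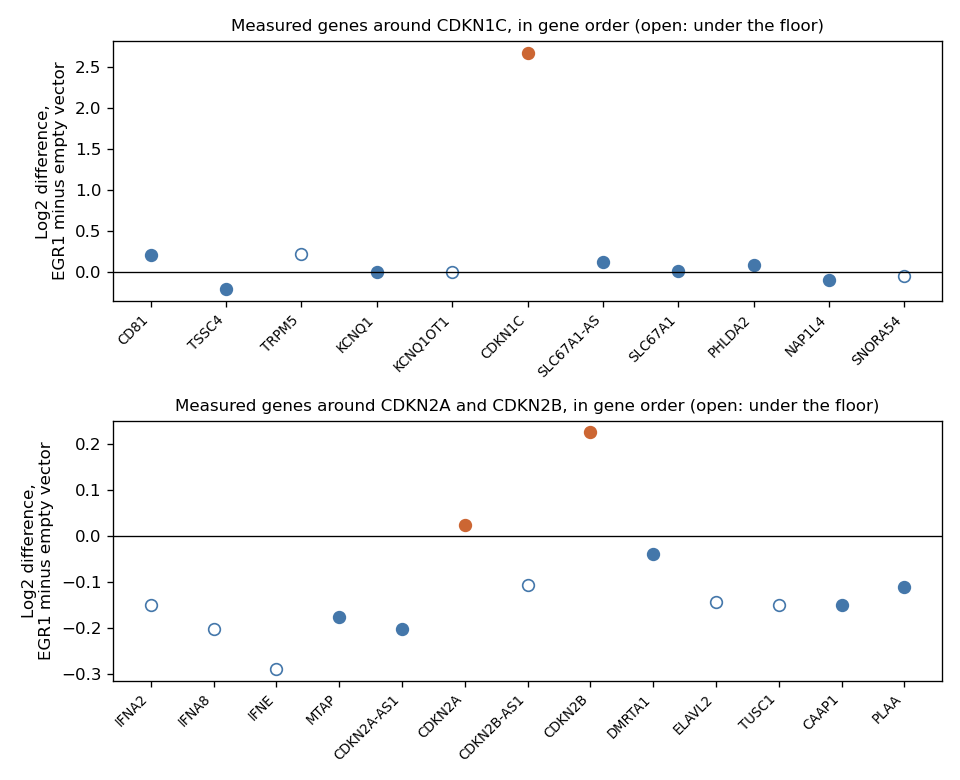
Log2 difference (EGR1-transfected minus empty vector) by brightest probe set of the measured genes around CDKN1C (top) and around CDKN2A and CDKN2B (bottom), in RefSeq gene order, 1 point per gene, CDK inhibitors in orange and genes under the floor as open points. CDKN1C at 2.67 stands above neighbours within 0.22 of 0; in the bottom panel, whose axis is much narrower, all 11 neighbours lie below 0.

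In the list of cyclins, cell-cycle CDKs and the CDK-activating kinase complex differences were small. Of 15 genes past the floor, 6 were above 0 and 9 below, and none reached 2-fold. Over all genes past the floor 44.6% were above 0, 52.8% below and 0.348% at or beyond 2-fold higher. The list median was -0.03, which turned to 0.01 after the lowess correction. CCNE1, the cyclin E partner of CDK2, had the largest difference by brightest probe set at 0.41 (8.25 against 8.67, the EGR1 array being higher). CDK1, the mitotic kinase, had a difference of -0.25, CCNH, the cyclin of the CDK-activating kinase, -0.22, and CDK2 -0.20. Some CDK1 and CDK2 probe sets went the other way (up to 0.14 and 0.04). Probe sets of CCNE2, the other cyclin E gene, ran from -0.55 to 0.14, and the lowest of CCND1, a cyclin D gene, was -0.38.

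In the list of RB pocket proteins, E2F factors and DREAM subunits, 3 of 17 members were above 0 and 13 below, beside 44.6% above and 52.8% below over all genes past the floor. Its median was -0.08, beside -0.02 over all genes past the floor. After the lowess correction these medians were -0.03 for the list and 0.01 for all genes past the floor. RB1, the retinoblastoma gene, read 7.89 in both arrays by the brightest of 3 probe sets, which ran from 0 to 0.58. RB1, CCNE2 and CCND1 were named after their values were seen. E2F7, a repressive E2F, had the largest difference at -0.39, with 1 of 2 probe sets at 0.04. E2F5 (0.17), E2F3 (-0.17) and E2F8 (-0.17) followed. Of 24 E2F-driven S-phase genes 5 were above 0 and 19 below, with a median of -0.14 (-0.10 after the lowess correction), and none reached 2-fold. The shares over all genes past the floor are those just given, with 0.348% at or beyond 2-fold higher. The flap endonuclease gene FEN1 had a difference of -0.42, the origin licensing gene CDC6 -0.27 and the helicase subunit MCM5 -0.25, while CCNE1, also in this list, was the highest.

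Genes of CDK inhibitor turnover had a median of -0.02, with 5 of 20 above 0 and none at 2-fold. Over all genes past the floor the median was also -0.02, with 44.6% above 0 and 0.348% at or beyond 2-fold higher. SKP2, the F-box protein that marks p27 for degradation, read 7.08 with empty vector and 6.78 with EGR1 (-0.31). MDM2 had a difference of -0.37 by the brightest of its 11 probe sets, which ran from -0.60 to 0.25. PSME3 had a difference of -0.21 and CUL4B one of 0.24.

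Factors known to act on CDK inhibitor genes had a median of 0.12, with 19 of 31 past the floor above 0 and 3 at or beyond 2-fold higher, beside 44.6% and 0.348% of all genes past the floor. With the mean of all probe sets that median was 0.03. The 3 were HEY1 at 4.14-fold and HES1 at 2.51-fold, Notch-induced repressors, and ID2 at 3.08-fold, an inhibitor of basic helix-loop-helix factors. Like the other lists, this one was chosen with earlier results of these data known. Its counts therefore describe the list and are no evidence that it stands out. The probe sets of HES1 ran from -0.03 to 1.33. FOXO1, a forkhead factor known to activate CDKN1B, read 6.07 with empty vector and 6.52 with EGR1 (0.45), and its lowest probe set differed by 0.04. Among other CDK regulators SERTAD1, a CDK4-binding protein, was 2.15-fold higher (8.40 against 9.50) by its single probe set. It was the 1 of 17 at 2-fold, beside 0.348% of all genes past the floor. SERTAD2 (0.41), CDK5 (0.31) and the phosphatase gene CDC25A (-0.30) had the next largest differences. The median of that list was -0.007, and its sign turned without _x_at and _s_at probe sets (0.01) and after the lowess correction (0.04).

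**Figure D4:**
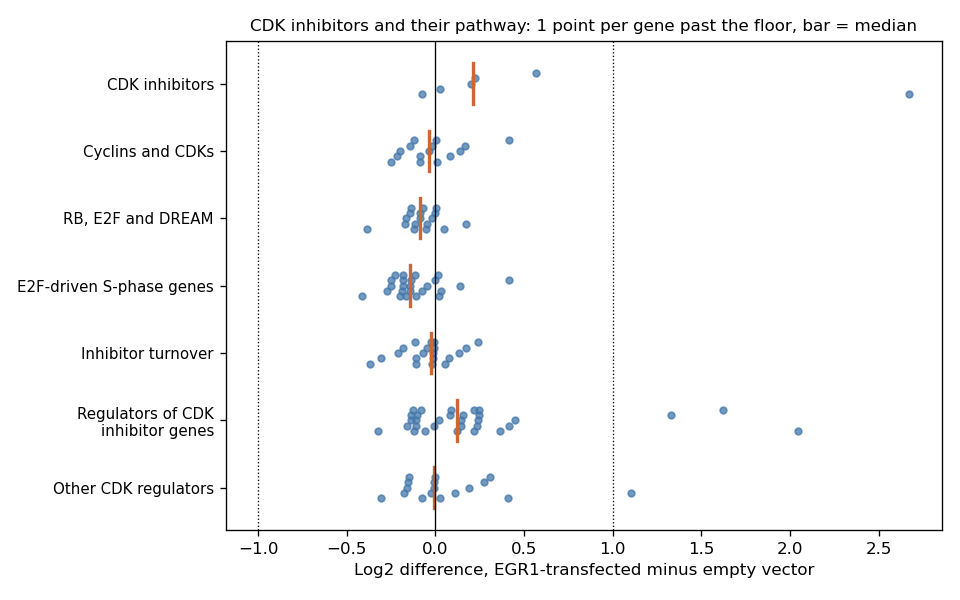
Log2 difference (EGR1-transfected minus empty vector) by brightest probe set of the genes past the floor in the CDK inhibitor group and 6 pathway lists, 1 point per gene, with an orange bar at each median and dotted lines at 2-fold. The CDK inhibitor median (0.21) is the rightmost, and 5 points lie beyond 2-fold: CDKN1C, HEY1, ID2, HES1 and SERTAD1.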

How the data were processed

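The values are log2 probe-set levels that the authors deposited, made with RMA per the submitters' processing notes, from cRNA labelled from 2 µg of total RNA per the labels' protocols. The sources used here give no software, version, settings or genome build. Depth does not apply to arrays, and their number (1 per group) limits the precision. Gene names came from the platform annotation, updated by Entrez ID from RefSeq (GRCh38.p14): 44994 had 1 symbol, 1832 several and 2569 none, and 44967 of the first matched. Of the pathway lists, members with no named probe set were not analysed here. Differences, fold counts and medians were computed with pandas 2.3.3 in Python 3.11.15, and the counting was checked on simulated data. Probe sets of each decile of mean level gave the middle 95%. The members and lists were chosen with earlier results of these data known. Besides all members, the text names up to 4 genes per list with the largest absolute difference past the floor, the genes next to CDKN1C in rank, the 5 nearest measured neighbours per side, and the transfected gene. Alternatives were the mean of all probe sets, leaving out _x_at and _s_at probe sets, a lowess correction (fraction 0.3, statsmodels 0.14.6), no floor, a floor at the 60th percentile and a threshold of 1.5-fold. A planned comparison of the proteins was not run.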

Additional observations from a re-analysis of the deposited data

How the results depend on the processing

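The count of 1 CDK inhibitor gene at or beyond 2-fold higher, CDKN1C, was the same under all 6 alternatives, 1.5-fold included. Changing the floor could not alter it, since all 6 genes lay past each floor. At 1.5-fold (0.585) CDKN1B fell just short at 0.568. It read 0.601 without _x_at and _s_at probe sets and 0.621 after the lowess correction, settings not combined with that threshold. The median over the 6 genes stayed above 0, from 0.12 with the mean of all probe sets to 0.26 after the lowess correction. No gene of the 6 changed sign under the 3 alternatives tried on single genes; with the mean of all probe sets CDKN1C (3.09) and CDKN2B (0.06) moved by more than the pooled SD of 0.15. Signs turned in list medians near 0: that of other CDK regulators to 0.012 without _x_at and _s_at probe sets and to 0.036 after the lowess correction, and that of cyclins and CDKs to 0.0088 after it. The cause was not tested. No paired analysis was possible because each group holds 1 array, and leaving out a replicate was impossible for the same reason. Spread between cultures, transfections and arrays is not measured, and signal near the floor limits the CDKN1C fold.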
